A study of Mus musculus with 6 samples.

Results

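The genes described here build and control the peptide loading complex, the machinery of the endoplasmic reticulum (ER) that fills major histocompatibility complex (MHC) class I molecules with peptide. They were listed by gene symbol, by a rule that uses no measured value, although they were chosen with earlier results of these data known. All 10 were found among the 23420 genes of the count table. Bone marrow-derived mesenchymal stromal cells (MSCs) were sequenced as 6 poly(A)-selected libraries, of which 3 carry the label Ctl MSC and 3 the label MSC-TPr. The study addressed whether subunits of the thymoproteasome, the proteasome form of thymic cortical epithelium, alter antigen cross-presentation by MSCs. The cells came from flushed femurs of female C57BL/6 mice aged 6 to 8 weeks and were grown in AMEM with 10% fetal bovine serum and penicillin-streptomycin. MSC-TPr cells had been transduced with AP2 retrovirus carrying the proteasome subunits β1i, β2i and β5t (genes Psmb9, Psmb10 and Psmb11), joined by self-cleaving linker peptides, and Ctl MSCs with the empty vector, so that cells of both groups carry the vector with its green fluorescent protein marker. No interferon treatment is named for the sequenced cells. Whether the 3 libraries of a group came from separate cultures or animals is not stated, so p-values measure only the spread between these libraries, which may be technical.

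Class I molecules are assembled in the ER from a heavy chain, β2-microglobulin (B2m) and a short peptide. Peptides made in the cytosol are pumped into the ER by the transporter Tap1-Tap2 and can be shortened there by the aminopeptidase Erap1. Tapasin (Tapbp) holds empty class I molecules beside the transporter, the related protein TAPBPR (Tapbpl) edits peptides away from it, and Nlrc5 is a transcriptional coactivator of class I genes. These 7 genes are grouped here as interferon-inducible, a grouping from general knowledge and not from these libraries. Calreticulin (Calr), calnexin (Canx) and the disulfide isomerase ERp57 (Pdia3) serve the loading complex as well as the folding of many other glycoproteins, and are grouped as the 3 general ER chaperones.

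Promoter sequence is shown for B2m, Calr and Canx because these are the members in which a motif of interferon or ER stress control was matched, and for Isg15, an interferon-induced ubiquitin-like protein, as a reference from outside the complex. Each run is the 250 bases before the RefSeq start site on GRCm38.p6, written 5′ to 3′ on the strand of the gene. Capitals mark the interferon-stimulated response element core in B2m and Isg15 and the ER stress response element in Calr and Canx. B2m lies at chr2:122147437-122147686 on the plus strand, Calr at chr8:84846932-84847181, Canx at chr11:50325674-50325923 and Isg15 at chr4:156200819-156201068, these 3 on the minus strand.
B2m: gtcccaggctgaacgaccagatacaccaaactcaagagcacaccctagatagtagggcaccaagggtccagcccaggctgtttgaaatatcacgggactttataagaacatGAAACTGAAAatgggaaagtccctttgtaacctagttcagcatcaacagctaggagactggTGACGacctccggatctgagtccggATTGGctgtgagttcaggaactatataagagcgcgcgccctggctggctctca
Calr: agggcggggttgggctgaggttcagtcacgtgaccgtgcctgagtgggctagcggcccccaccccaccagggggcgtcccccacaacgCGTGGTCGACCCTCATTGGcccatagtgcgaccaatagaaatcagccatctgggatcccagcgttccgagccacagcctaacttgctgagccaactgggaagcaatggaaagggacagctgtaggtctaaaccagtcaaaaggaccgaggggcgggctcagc
Canx: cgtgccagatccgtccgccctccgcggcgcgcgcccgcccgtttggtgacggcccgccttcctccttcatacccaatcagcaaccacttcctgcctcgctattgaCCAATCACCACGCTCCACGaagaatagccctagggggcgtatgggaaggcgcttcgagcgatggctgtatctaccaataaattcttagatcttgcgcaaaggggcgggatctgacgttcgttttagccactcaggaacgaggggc
Isg15: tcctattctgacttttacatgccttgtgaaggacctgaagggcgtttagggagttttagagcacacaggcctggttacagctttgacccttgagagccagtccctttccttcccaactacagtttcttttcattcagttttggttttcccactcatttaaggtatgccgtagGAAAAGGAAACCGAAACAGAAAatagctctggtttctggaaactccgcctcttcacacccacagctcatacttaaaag

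Both strands were searched, and 7 of the 10 members had a promoter entry (not Tap2, Tapbpl or Nlrc5). The interferon-stimulated response element core, GAAANNGAAA, was matched in 1 of the 7, B2m, from 139 to 130 bases before the start, and in 2.98% of all 32851 promoters of this length. In Isg15 it was matched 3 times in overlapping positions, from 78 to 57 bases before the start. The ER stress response element, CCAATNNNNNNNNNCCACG, was matched in 2 of the 7, in Calr on the opposite strand from 162 to 144 bases before the start and in Canx from 145 to 127, against 0.113% of all promoters. The γ-activated sequence TTCNNNGAA was matched in 0 of the 7 and in 7.02% of all promoters. The cyclic AMP response element core TGACG was matched in 4 of the 7 (B2m, Tap1, Canx and Pdia3) and in 17.8% of all promoters, and CCAAT, which every ER stress element also contains, in 6 of the 7 and in 33.8%. In B2m the capitals also mark its TGACG and its CCAAT match, the latter read as ATTGG. A match describes letters in this window and is not a measured binding site.

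Depth was 16158756 to 22158887 reads on genes per library, and each of the 10 genes had between 132 and 51198 reads in every library. The libraries labelled Ctl MSC 1 and MSC-TPr 1 stood apart from their own groups. Over all genes the first principal component, with 58.5% of the variance, placed Ctl MSC 1 (-40.9) with MSC-TPr 2 and 3 (-50.3 and -49.4), and MSC-TPr 1 (40.5) with Ctl MSC 2 and 3 (50.8 and 49.2). The second component, with 28.3% of the variance, separated the labels, with Ctl MSC at -48.9, -20.4 and -19.6 and MSC-TPr at 49.1, 24.2 and 15.6. The mean log2 CPM (read counts scaled to each library's reads on genes times its TMM normalization factor) of a list of 16 cell division genes split them in the same way, at 6.74 in Ctl MSC 1 and 6.63 and 6.61 in MSC-TPr 2 and 3, against 3.51 and 3.50 in Ctl MSC 2 and 3 and 3.47 in MSC-TPr 1. The transduced genes did not check the labels. Psmb11 had 1 to 6 reads in every library, Psmb9 was at 3.38, 0.801 and 0.827 CPM in Ctl MSC against 0.554, 1.24 and 1.21 CPM in the MSC-TPr libraries, and Psmb10 was at 27.8, 8.81 and 8.38 CPM and 8.97, 17.3 and 15.2 CPM. Values for single libraries are listed in the order of their numbers. The comparisons of members and lists are given over all 6 libraries and again with the libraries numbered 2 and 3 only; in that smaller comparison label and cell division level cannot be told apart.

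As a check of the labelled cell type, Eng (CD105) was at 142 to 204 CPM and Cd44 at 142 to 536 CPM, whereas Thy1 (CD90), a usual MSC marker, had 1 read in 1 library and none in the others. Of the MSC markers, Nt5e (CD73) had a log2 fold change of -2.02, Cxcl12 of -1.19 and Pdgfra of -0.81 (edgeR adjusted p = 0.0790, 0.554 and 0.621). Of 13 haematopoietic and myeloid markers, 3 were at 0 in all libraries and 8 had at most 3 reads in any library, among them Ptprc (CD45), and the summed level of the list was 12.1 to 15.0 CPM in Ctl MSC and 13.1 to 17.9 CPM in MSC-TPr. The 5 endothelial markers summed to 0.785 to 3.09 CPM in Ctl MSC and 1.67 to 3.32 CPM in MSC-TPr. Those tested at a sufficient level, Cd14 (0.57), Cd68 (-0.17) and Kdr (0.08), and the cell division genes Bub1 (1.25), Mki67 (0.99) and Mcm5 (0.97) were not called over 6 libraries. Restricted to libraries 2 and 3, 15 of the 16 cell division genes were called higher (median log2 fold change 3.38), Cd14 was at 1.81 (edgeR adjusted p = 0.00113), Cd68, a macrophage marker, at -2.83 (edgeR adjusted p = 0.00203), Cd44 at 1.88 (edgeR adjusted p = 0.000205) and Nt5e at -1.99 (edgeR adjusted p = 0.000810). There Cxcl12 and Pdgfra turned to 0.34 and 0.47 (edgeR adjusted p = 0.163 and 0.305). The median of the 9 MSC markers tested went from -0.55 over 6 libraries to 0.34 with libraries 2 and 3 only. The part of these markers in the members' values was not tested.

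In levels per length (CPM per kilobase of merged exons, mean of 6 libraries) the chaperones and B2m lay far above the rest of the complex. Calr stood at 765 (548 to 976 over the libraries), B2m at 636 (433 to 819), Pdia3 at 452 (371 to 526) and Canx at 372 (310 to 424). Tapbp followed at 23.3 (16.4 to 41.6), then Tapbpl at 7.46 (5.25 to 9.22), Tap2 at 6.45 (5.16 to 9.41), Erap1 at 4.86 (4.23 to 6.42), Tap1 at 2.24 (1.43 to 3.75) and Nlrc5 at 1.77 (0.919 to 2.79). The ranges of neighbours in this order did not overlap between Canx and Tapbp, Tapbp and Tapbpl, or Erap1 and Tap1, and overlapped for every other pair of neighbours. By this measure Tap2 lay above Tap1 in each library. In counts the 2 genes were nearly level in Ctl MSC 1 (340 reads of Tap1 and 346 of Tap2), so their order there rests on the exon lengths used. Part of the exon length of Tap2 also overlaps opposite-strand genes, and the strand setting of the counting is not stated.

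**Figure D1:**
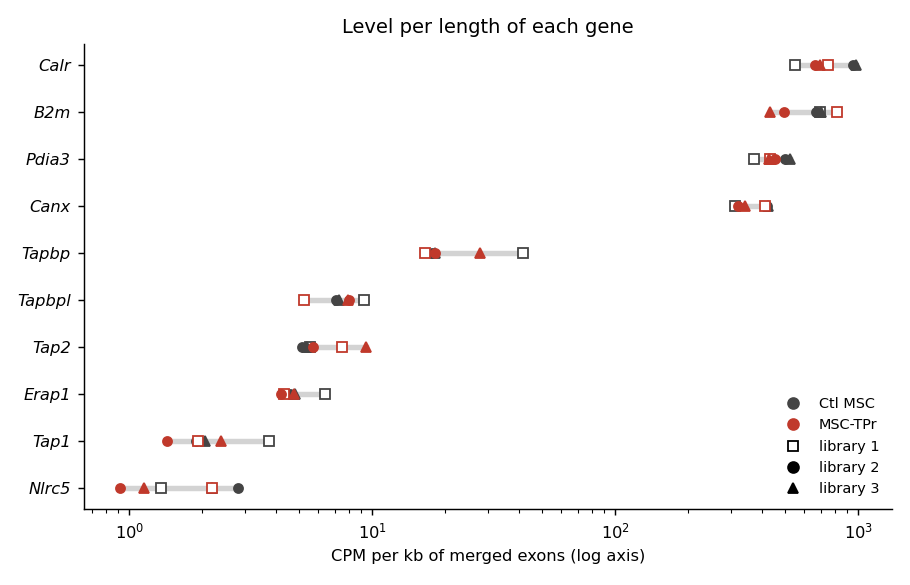
Level of each of the 10 genes per library, in CPM per kilobase of exon on a log axis, with Ctl MSC and MSC-TPr libraries as separate points. B2m and the 3 chaperones lie between 310 and 976, and the other 6 genes between 0.919 and 41.6.

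Between MSC-TPr and Ctl MSC, 0 of the 10 genes were called over the 6 libraries, where a call needs an edgeR adjusted p under 0.05 together with a log2 fold change whose size reaches 0.5. The background was small as well: 51 of 11974 genes tested were called, 0.426%, of which 0.401% lower and 0.0251% higher in MSC-TPr. None of the 10 had an unadjusted p under 0.05, against 15.0% of all genes, and DESeq2 also called 0 of the 10, against 4.07% of 16763 genes. The log2 fold change was below 0 for 9 genes and above 0 for 1, Tap2, with edgeR adjusted p from 0.356 to 0.875. The 95% intervals all reached at least 0.5 in size on 1 side or the other, so changes of that size could not be told from none with these libraries. With the libraries numbered 2 and 3 only, edgeR called 2 of the 10, B2m and Nlrc5, both lower in MSC-TPr, and DESeq2 called 2 as well. There 40.0% of all 12122 genes tested were called, 19.4% lower and 20.6% higher, so the members' share was not above the background. Ctl MSC 2 and 3 were much alike, with a chi-square of their read counts of 4.76 per gene, against 50.0 for MSC-TPr 2 and 3. The spread behind the p-values of that comparison may thus be close to technical on the control side. With the cell division list as a covariate over 6 libraries edgeR called 0 of the 10, against 12.0% of all genes, and 1, Tap2, had an unadjusted p under 0.05, against 31.7% of all genes.

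**Figure D2:**
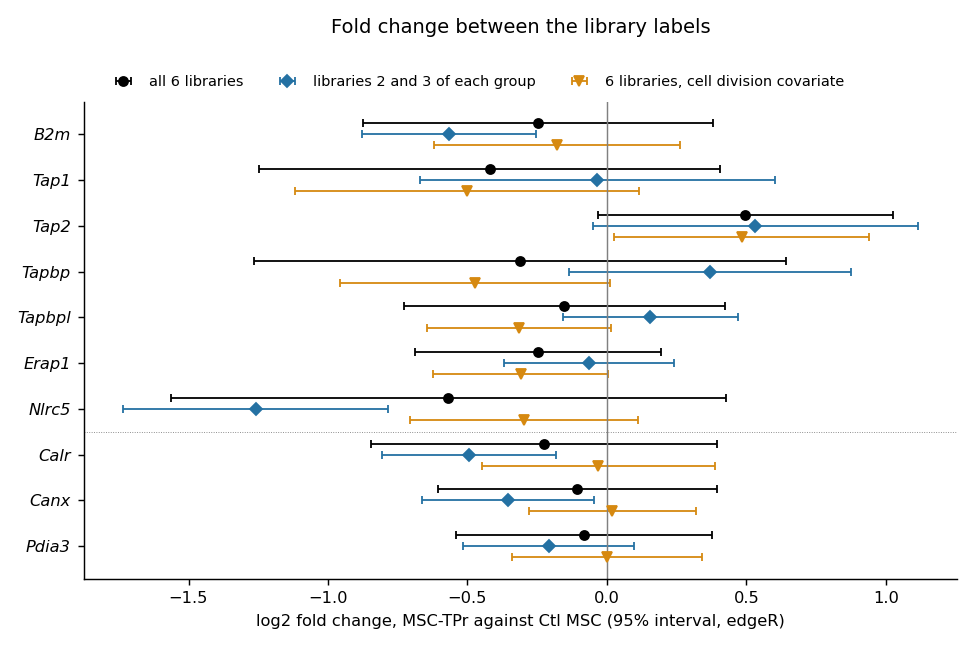
Log2 fold change of MSC-TPr over Ctl MSC for each gene with its 95% interval, from edgeR on all 6 libraries (circles), on the libraries numbered 2 and 3 only (diamonds) and on 6 libraries with the cell division covariate (triangles). For the circles each interval except that of Tap2 is centred below 0 and all include 0. Without the libraries numbered 1 the intervals of B2m, Nlrc5, Calr and Canx lie below 0. With the covariate the interval of Tap2 lies above 0 (0.03 to 0.94), and Canx and Pdia3 are centred at 0.02 and 0.0002.

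B2m (chr2:122147686-122153083, mm10), the light chain shared by all class I molecules, was at 599, 578 and 605 CPM in Ctl MSC against 704, 426 and 372 CPM in MSC-TPr. The control libraries were close together, and MSC-TPr 1 lay above and MSC-TPr 2 and 3 below all of them. The means were 594 ± 14.2 and 501 ± 178 CPM (SD, n = 3 per group), a log2 fold change of -0.25 (SE 0.262, 95% interval -0.87 to 0.38, edgeR adjusted p = 0.710). With libraries 2 and 3 only it was -0.57 (SE 0.128, edgeR adjusted p = 0.0152), and MSC-TPr 1 alone was 1.19 times the mean of Ctl MSC 2 and 3.

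Nlrc5 (chr8:94434356-94527272), which drives transcription of heavy chain genes, B2m and Tap1, was at 11.4, 23.7 and 18.6 CPM in Ctl MSC against 18.7, 7.81 and 9.79 CPM in MSC-TPr. Ctl MSC 1 fell among the lower libraries and MSC-TPr 1 among the higher, so the groups overlapped. The means were 17.9 ± 6.18 and 12.1 ± 5.78 CPM (SD, n = 3 per group) and the log2 fold change was -0.57 (SE 0.415, 95% interval -1.56 to 0.43, edgeR adjusted p = 0.565). Without the libraries numbered 1 the means were 21.2 ± 3.59 and 8.80 ± 1.40 CPM (SD, n = 2 per group), and the log2 fold change was -1.26 (SE 0.194, edgeR adjusted p = 0.00405), the largest change of the 10 genes in that comparison. In all 6 libraries Nlrc5 was lower where the cell division genes were high: 7.81 to 11.4 CPM in Ctl MSC 1 and MSC-TPr 2 and 3, and 18.6 to 23.7 CPM in the other 3. The same split is that of the first principal component, with 58.5% of the variance. The share of all genes that divide the libraries in this way was not counted, so whether the pattern is particular to Nlrc5 is not known. With the cell division covariate over 6 libraries the log2 fold change was -0.30 (SE 0.177, edgeR adjusted p = 0.282).

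Tap1 and Tap2 (chr17:34187553-34197225 and chr17:34203527-34216321) encode the chains of the peptide transporter and lie 6302 bases apart in the MHC region. Tap1 was at 20.5, 10.3 and 11.3 CPM in Ctl MSC against 10.5, 7.81 and 13.1 CPM in MSC-TPr, and Ctl MSC 1 was the only library above 13.1. Its means were 14.0 ± 5.66 and 10.5 ± 2.64 CPM (SD, n = 3 per group) and its log2 fold change -0.42 (SE 0.345, 95% interval -1.25 to 0.41, edgeR adjusted p = 0.616). Restricted to libraries 2 and 3, that value was -0.03 (SE 0.260, edgeR adjusted p = 0.924). Tap2 was at 20.9, 19.5 and 20.3 CPM in Ctl MSC against 28.3, 21.7 and 35.6 CPM in MSC-TPr. Every MSC-TPr library lay above every Ctl MSC library, and Tap2 was the single member of the 10 whose groups did not overlap, against 22.6% of all genes tested (10.6% higher in MSC-TPr). Its means were 20.2 ± 0.707 and 28.5 ± 6.97 CPM (SD, n = 3 per group) and its log2 fold change 0.49 (SE 0.221, 95% interval -0.03 to 1.02, edgeR adjusted p = 0.356), which did not pass the test. Restricted to libraries 2 and 3, it was 0.53 (SE 0.239, edgeR adjusted p = 0.116). Exons of Tap2 overlap the opposite-strand genes Gm15821 over 533 bases, 14.1% of its exon length, and Gm20496 over 165 bases, and Tap1 overlaps Psmb9 over 212 bases, 3.87%. The strand setting of the counting is not stated, so reads of such partners cannot be told apart.

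As the transporter holds both chains in equal number, their count ratio was taken in each library, a comparison chosen after the values were seen. The Tap1 to Tap2 ratio of reads was 0.983, 0.529 and 0.554 in Ctl MSC and 0.372, 0.361 and 0.368 in MSC-TPr. The MSC-TPr libraries were close together and below all Ctl MSC libraries, including both libraries numbered 1. The mean log2 ratio was -0.60 ± 0.498 in Ctl MSC and -1.45 ± 0.0222 in MSC-TPr (SD, n = 3 per group), given as a description with no test. Of the 45 pairs of members, 5 had ratios that did not overlap between the groups, all with Tap2 as a partner (B2m, Tap1, Tapbp, Erap1 and Canx), against 22.4% of all pairs of genes tested, so the count of such pairs was below the background.

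**Figure D3:**
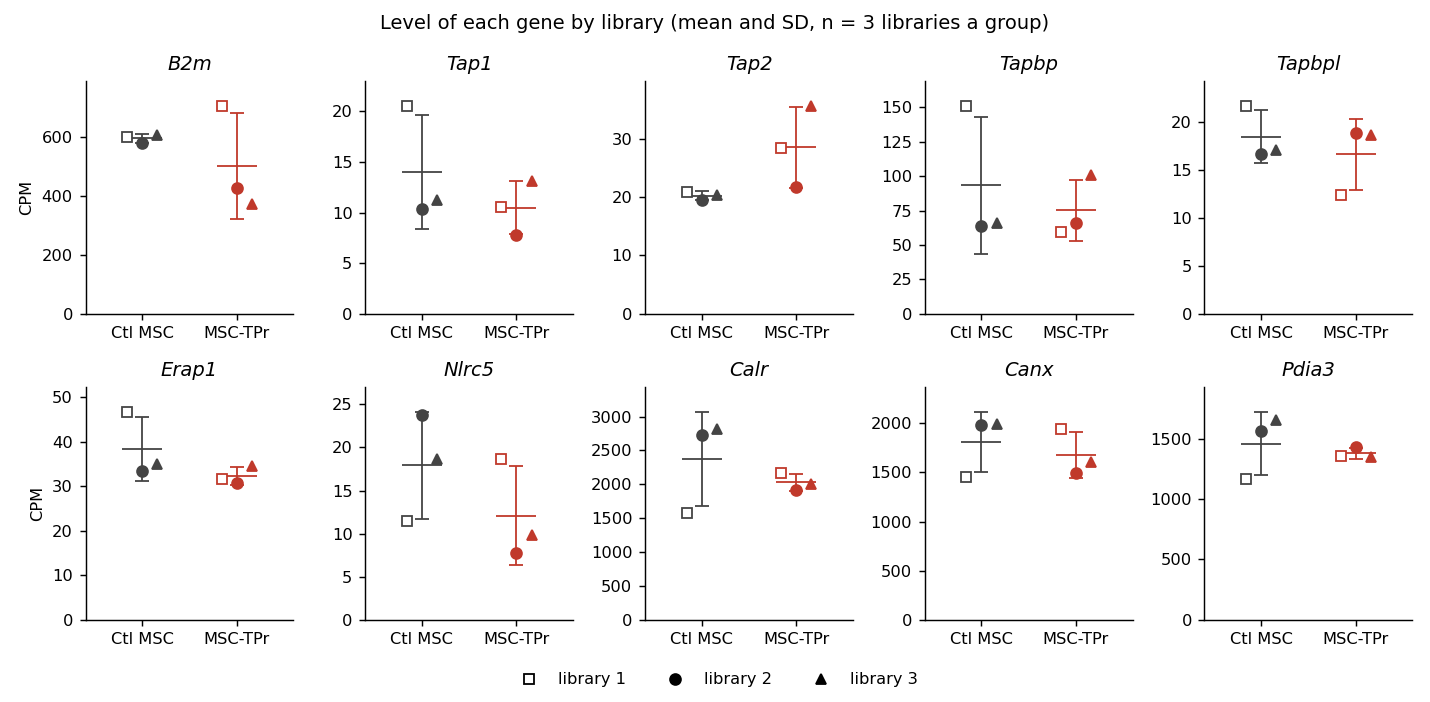
Level in CPM of each of the 10 genes in the 3 Ctl MSC and 3 MSC-TPr libraries, with a point per library and lines for the mean and SD. Tap2 is the panel without overlap between groups, with 19.5 to 20.9 CPM in Ctl MSC and 21.7 to 35.6 CPM in MSC-TPr.

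Tapbp (chr17:33915899-33929292), tapasin, which bridges the transporter and the class I molecule, was at 151, 63.6 and 65.7 CPM in Ctl MSC against 59.5, 65.7 and 101 CPM in MSC-TPr. Ctl MSC 1 was 2.34 times the mean of Ctl MSC 2 and 3, and those 2 libraries lay within the MSC-TPr range. The means were 93.5 ± 49.9 and 75.3 ± 22.3 CPM (SD, n = 3 per group) and the log2 fold change -0.31 (SE 0.398, 95% interval -1.26 to 0.64, edgeR adjusted p = 0.765). It turned to 0.37 with libraries 2 and 3 only (SE 0.207, edgeR adjusted p = 0.190). The count of Tapbp is uncertain, since 24.9% of its exon length overlaps Gm19412 on the opposite strand and 4.11% overlaps Zbtb22 on the same strand.

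Tapbpl (chr6:125223933-125231860), the tapasin relative TAPBPR, was at 21.7, 16.7 and 17.1 CPM in Ctl MSC against 12.3, 18.9 and 18.6 CPM in MSC-TPr. The libraries numbered 1 were the highest and the lowest of the 6. The means were 18.5 ± 2.78 and 16.6 ± 3.70 CPM (SD, n = 3 per group), with a log2 fold change of -0.15 (SE 0.240, 95% interval -0.73 to 0.42, edgeR adjusted p = 0.811) that turned to 0.15 with libraries 2 and 3 only (SE 0.129, edgeR adjusted p = 0.358).

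Erap1 (chr13:74639568-74693201), the ER aminopeptidase that shortens peptides at their amino end, was at 46.7, 33.5 and 35.0 CPM in Ctl MSC against 31.7, 30.8 and 34.7 CPM in MSC-TPr. Apart from Ctl MSC 1 the libraries spanned 30.8 to 35.0 CPM, and the groups overlapped. The means were 38.4 ± 7.21 and 32.4 ± 2.06 CPM (SD, n = 3 per group), a log2 fold change of -0.25 (SE 0.184, 95% interval -0.69 to 0.19, edgeR adjusted p = 0.574), or -0.06 with libraries 2 and 3 only (SE 0.125, edgeR adjusted p = 0.700). Cast, on the opposite strand, overlaps 11.5% of the exon length of Erap1.

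All 3 chaperones were lowest in Ctl MSC 1. Calr (chr8:84841850-84846934), the soluble lectin chaperone, was at 1579, 2734 and 2811 CPM in Ctl MSC against 2165, 1917 and 2010.3 CPM in MSC-TPr. The MSC-TPr libraries lay together between Ctl MSC 1 and the other control libraries. The means were 2375 ± 690.1 and 2031 ± 125 CPM (SD, n = 3 per group), a log2 fold change of -0.23 (SE 0.259, 95% interval -0.85 to 0.39, edgeR adjusted p = 0.732). With libraries 2 and 3 only the value was -0.495 (SE 0.127, edgeR adjusted p = 0.0230), past the adjusted p threshold but short of the fold change minimum.

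Canx (chr11:50293961-50325673), the membrane-bound relative of calreticulin, was at 1456, 1980.3 and 1989 CPM in Ctl MSC against 1942, 1495 and 1603 CPM in MSC-TPr. Its highest library was only 1.37 times its lowest, the narrowest span of the 10 genes, and the groups overlapped. The means were 1808 ± 305 and 1679.7 ± 233 CPM (SD, n = 3 per group). The log2 fold change was -0.11 (SE 0.209, 95% interval -0.61 to 0.39, edgeR adjusted p = 0.850), and -0.36 with libraries 2 and 3 only (SE 0.126, edgeR adjusted p = 0.0618).

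Pdia3 (chr2:121413775-121438687), ERp57, the disulfide isomerase bound to tapasin, was at 1164, 1565 and 1652 CPM in Ctl MSC against 1356, 1429 and 1348 CPM in MSC-TPr. As for Calr, the MSC-TPr libraries lay between Ctl MSC 1 and the other controls. The means were 1460.1 ± 260.2 and 1378 ± 44.6 CPM (SD, n = 3 per group). The log2 fold change was -0.08 (SE 0.192, 95% interval -0.54 to 0.38, edgeR adjusted p = 0.875), and -0.21 with libraries 2 and 3 only (SE 0.126, edgeR adjusted p = 0.216).

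Ctl MSC 1 stood above the other controls for part of the interferon-inducible members and below them for the chaperones. Nlrc5 went the way of the chaperones, at 11.4 CPM in Ctl MSC 1 against 23.7 and 18.6 CPM in Ctl MSC 2 and 3. B2m (599 against 578 and 605 CPM) and Tap2 (20.9 against 19.5 and 20.3 CPM) were near the other controls. Of the 7 interferon-inducible members, 4 (Tap1, Tapbp, Tapbpl and Erap1) were highest of all 6 libraries in Ctl MSC 1, where 21.6% of all genes tested had their highest value. All 3 chaperones were lowest in Ctl MSC 1, as 21.0% of all genes were. With each gene centred on its own mean log2 CPM, the median of the interferon-inducible members minus that of the chaperones was 0.60 in Ctl MSC 1, -0.26 in Ctl MSC 2 and -0.25 in Ctl MSC 3. In MSC-TPr libraries 1, 2 and 3 it was -0.15, -0.10 and 0.21, inside the range of the control libraries. The median log2 fold change over 6 libraries was -0.25 for the interferon-inducible members, -0.11 for the chaperones and 0.01 for all genes tested, a difference of -0.14 between the groups of members. Without the libraries numbered 1 the order turned, to -0.03 for the interferon-inducible members and -0.36 for the chaperones, a difference of 0.32. Without Ctl MSC 1 alone the difference was 0.20, and without MSC-TPr 1 alone it was -0.0070. Leaving out Ctl MSC 2, Ctl MSC 3, MSC-TPr 2 or MSC-TPr 3 alone gave -0.28, -0.28, -0.11 and -0.22. Of the single libraries only Ctl MSC 1 changed the sign when left out. The pooled SD of this difference between the 3 libraries of a group was 0.375. It includes the libraries numbered 1 and is a spread of single libraries. It is thus no measure of error for these values, least of all for the one without those libraries. No direction was established, since the sign changed with the libraries used. With the cell division covariate the medians were -0.31 and 0.00021, a difference of -0.31.

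**Figure D4:**
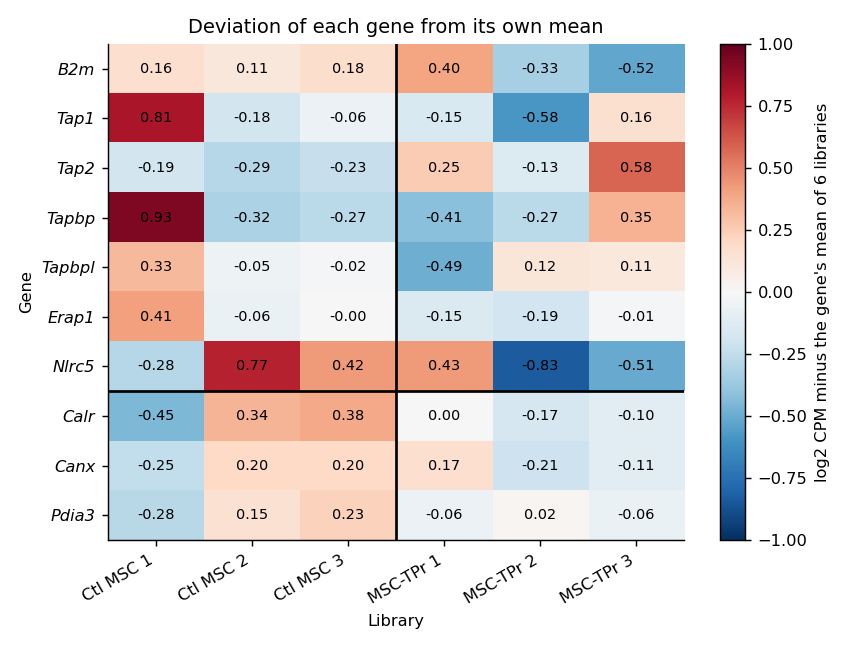
Log2 CPM of each gene minus its own mean over the 6 libraries, as colour and printed value, with genes in rows (interferon-inducible above the line, chaperones below) and libraries in columns. In Ctl MSC 1 Tap1 and Tapbp are at 0.81 and 0.93 and the chaperones between -0.45 and -0.25. The other interferon-inducible genes there are Erap1 at 0.41, Tapbpl at 0.33, B2m at 0.16, Tap2 at -0.19 and Nlrc5 at -0.28. Nlrc5 thus lies within the range of the chaperones.

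The libraries were also set side by side at like levels of cell division genes, as values with no replicate check because 1 library stands alone on 1 side of each comparison. Where those genes were high, the mean of MSC-TPr 2 and 3 was 0.508 times Ctl MSC 1 for Tap1, 0.551 for Tapbp, 0.701 for Erap1, 0.665 for B2m and 1.37 for Tap2. For the chaperones the same quotient was 1.24 for Calr, 1.06 for Canx and 1.19 for Pdia3. Where those genes were low, MSC-TPr 1 was 0.976 times the mean of Ctl MSC 2 and 3 for Tap1, 0.920 for Tapbp, 0.924 for Erap1, 1.19 for B2m and 1.42 for Tap2. There the chaperones were at 0.781 for Calr, 0.978 for Canx and 0.843 for Pdia3. Tap2, Tapbpl and Nlrc5 had quotients on the same side of 1 in both settings, Tapbpl at 0.865 and 0.731 and Nlrc5 at 0.770 and 0.881, as did Tap1, Tapbp and Erap1, while B2m and each chaperone changed sides.

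The genes that feed and surround the loading complex were taken as lists. Of 8 MHC class I heavy chain genes tested of 15 listed, edgeR called 0 over 6 libraries (DESeq2 called 1 higher, and 3 had an unadjusted edgeR p under 0.05), with a median log2 fold change of -0.16 and groups that did not overlap in 3 (H2-T24 higher, H2-Q4 and H2-K1 lower), where 22.6% of all genes did not. Without the libraries numbered 1, 2 were called higher and 2 lower (median -0.10), against 40.0% of all genes. H2-K1, the classical heavy chain H-2K, was at 109, 121 and 128 CPM in Ctl MSC against 101, 67.0 and 63.5 CPM in MSC-TPr. The log2 fold change of H2-K1 came to -0.63 (SE 0.216, edgeR adjusted p = 0.257), and -0.93 with libraries 2 and 3 only (edgeR adjusted p = 0.00176). H2-D1, the classical heavy chain H-2D, was at 109, 117 and 124 CPM in Ctl MSC against 160, 76.1 and 73.9 CPM in MSC-TPr and overlapped, with values of -0.18 over 6 libraries (edgeR adjusted p = 0.838) and -0.68 with libraries 2 and 3 only (edgeR adjusted p = 0.00467). The values for H2-T24 and H2-Q4 were 1.41 and -0.79 (edgeR adjusted p = 0.170 and 0.316). Counts of heavy chain genes are uncertain, since near-identical copies share reads.

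The inducible subunits of the proteasome and its PA28 activator, which supply peptide to the transporter, were all highest in Ctl MSC 1. Of these 5 genes 0 were called over 6 libraries (0 by DESeq2 and 0 at an unadjusted edgeR p under 0.05), with log2 fold changes of -0.48 for Psmb8, -0.16 for Psme2 and -0.11 for Psmb10, and with libraries 2 and 3 only 3 were called higher (median 0.60), against 20.6% of all genes. With the cell division covariate 1 was called lower (median -0.35), against 7.28%. Psmb9 and Psmb10 are also transgenes in MSC-TPr. Of 7 cytosolic and ER-linked peptidases, edgeR called 0 (DESeq2 also 0, and 1 had an unadjusted edgeR p under 0.05), with a median of 0.23 and values of 0.53 for Lnpep, 0.42 for Lap3 and -0.36 for Nrd1. With libraries 2 and 3 only, 2 of these were called higher and 1 lower, against 20.6% and 19.4% of all genes.

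Interferon targets outside the loading complex had larger fold changes than its members. Both lists were chosen with earlier results of these data known, so this contrast is a description and not a test. Of 24 such targets tested of 25 listed, 3 were called lower by edgeR over 6 libraries (Usp18, Rsad2 and Oasl2), 23 did not overlap between groups (12.1% of all genes did so in this direction), and the median log2 fold change was -2.77, against -0.25 for the interferon-inducible members of the loading complex. Isg15 was at 106, 31.5 and 35.1 CPM in Ctl MSC against 5.48, 6.03 and 4.64 CPM in MSC-TPr, which gave a log2 fold change that reached -3.41 (SE 0.533, edgeR adjusted p = 0.0722). The value was -3.59 for Oasl2 (edgeR adjusted p = 0.0307), -3.49 for Usp18 (edgeR adjusted p = 0.0485), -2.38 for Rsad2 (edgeR adjusted p = 0.0352) and -4.37 for Iigp1 (edgeR adjusted p = 0.0947). No gene of the whole table was called when Ctl MSC 2, Ctl MSC 3 or MSC-TPr 3 was left out. DESeq2 called 22 of the 24 lower over 6 libraries. With libraries 2 and 3 only, 22 of the 24 were called lower, with a median of -2.13, and with the cell division covariate all 24 were called lower, against 19.4% and 7.28% of all genes.

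Of 15 interferon receptors, JAK-STAT factors and interferon regulatory factors tested of 16 listed, edgeR called 0 over 6 libraries, DESeq2 called 4 lower, 5 had an unadjusted edgeR p under 0.05 (all lower, against 15.0% of all genes in either direction), and 6 did not overlap in the lower direction (12.1% of all genes). In libraries 2 and 3 only, 6 were called lower (median -0.23), against 19.4% of all genes. Irf7, a factor that induces interferon genes, had a log2 fold change of -2.82 (edgeR adjusted p = 0.0504) and Stat2 of -1.57 (edgeR adjusted p = 0.0731). Irf1, an interferon-induced activator of class I pathway genes, was at 60.1, 21.7 and 21.5 CPM in Ctl MSC against 14.5, 21.7 and 25.4 CPM in MSC-TPr, and the groups overlapped. Of 8 factors of the MHC enhanceosome, the complex in which Nlrc5 acts, tested of 9 listed, edgeR called 0 over 6 libraries (DESeq2 also 0, and 0 had an unadjusted edgeR p under 0.05), with a median of 0.07, and 0 with libraries 2 and 3 only. Nfyb (0.39), Nfyc (-0.32) and Rfxap (-0.28) had the largest values.

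**Figure D5:**
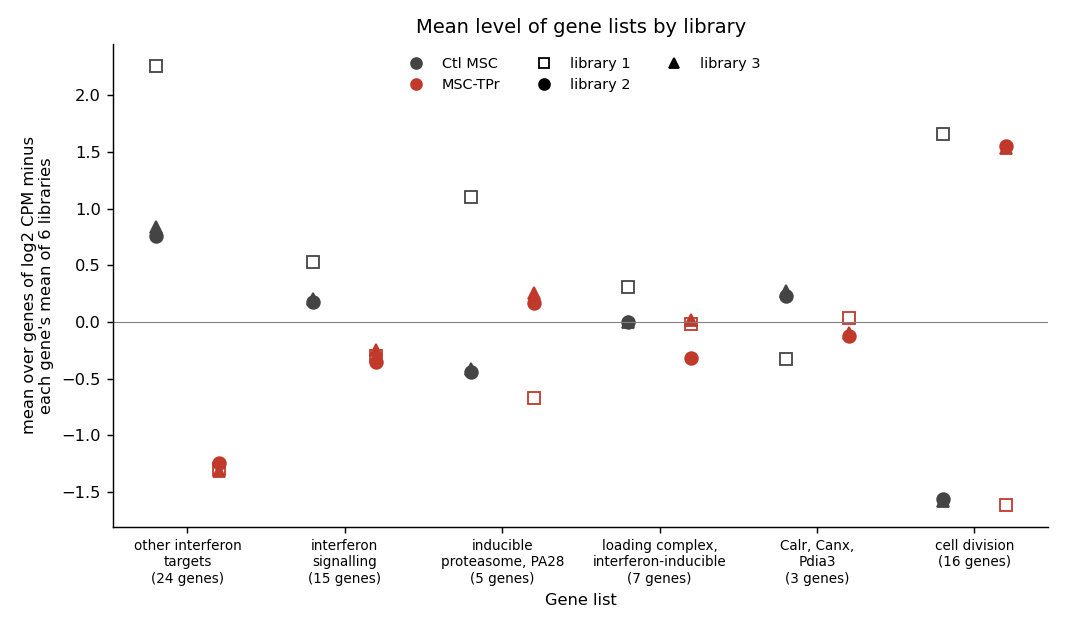
Mean over the genes of each list of log2 CPM minus each gene's own mean over 6 libraries, for 6 lists, with open squares for the libraries numbered 1, circles for 2 and triangles for 3. Other interferon targets lie at 0.76 to 2.26 in Ctl MSC and -1.32 to -1.24 in MSC-TPr, whereas the interferon-inducible members lie at -0.0032 to 0.31 and -0.32 to 0.02 and overlap. The lists were chosen with earlier results of these data known.

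The chaperones were set beside the other folding genes of the ER. Of 11 genes of glycoprotein quality control and oxidoreductases, edgeR called 0 over 6 libraries (DESeq2 also 0, and 2 had an unadjusted edgeR p under 0.05), with a median log2 fold change of -0.32, and 6 were called lower with libraries 2 and 3 only, with a median of -0.56, against 19.4% of all genes. Ero1lb (-1.14), Uggt1 (-0.61) and Pdia4 (-0.60) had the largest values over 6 libraries. Of 14 ER heat shock and unfolded protein response genes, edgeR called 0 over 6 libraries (DESeq2 called 1 lower, and 2 had an unadjusted edgeR p under 0.05), with a median of -0.28, 6 were lowest in Ctl MSC 1, and 7 were called lower with libraries 2 and 3 only, with a median of -0.44, against the same 19.4%. Hsp90b1 (GRP94) was at 2844 CPM in Ctl MSC 1, at 5603 and 5770 CPM in the other controls and at 2785 to 3121 CPM in MSC-TPr, with a log2 fold change of -0.69 (edgeR adjusted p = 0.341), and Sdf2l1 and Ern1 had values of -1.17 and -1.01 (edgeR adjusted p = 0.0774 and 0.444). Hspa5 (BiP) showed 0.05 over 6 libraries (edgeR adjusted p = 0.945). The summed level of the list was 8492 to 16308 CPM in Ctl MSC and 10887 to 11414 CPM in MSC-TPr.

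The genes whose levels followed a member most closely were ranked by the root mean square difference of centred log2 CPM over the 6 libraries, among 10966 genes. Nearest to Tap1 were Hspa1a (0.0862), Magee1 (0.121), Fam102b (0.137), Mov10 (0.139) and Ctso (0.150). Nearest to Calr were Arap1 (0.0224), Dock11 (0.0520), Nox4 (0.0541), Tigd2 (0.0543) and Dnajb12 (0.0544), an ER-membrane cochaperone. Such likeness over 6 libraries that share 1 split describes the pattern only.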

How the data were processed

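RNA was poly(A)-selected and made into libraries with a stranded kit, and the authors used HTSeq-count to assign reads aligned to mm10 to genes. The submitters' processing notes name CASAVA 1.8.2, Trimmomatic 0.35 and TopHat2 2.1.0. The deposited values are counts without normalization, 1 column for each of 6 libraries, and all columns were used. On-gene reads were 79.2% to 86.2% of those listed. Unassigned rows (no feature 6.86% to 10.9%, not unique 5.89% to 8.92%, ambiguous 0.939% to 1.09%) were left out. The strand and overlap settings of the counting are not given in the sources used here.

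CPM are counts scaled to the library's reads on genes times its TMM factor (0.959 to 1.025). Before that factor, 3 reads correspond to 0.135 to 0.186 CPM. Groups came from the sample labels. The counts were fitted in R 4.3.3 with edgeR 4.0.16 (filterByExpr, TMM, quasi-likelihood test, group as the only term) over all genes, with Benjamini-Hochberg adjustment; calls needed an adjusted p under 0.05 with a log2 fold change 0.5 or more in size. DESeq2 1.42.0, other normalizations and filters, a replicate block, a cell division covariate, libraries numbered 2 and 3 only and each library left out were alternatives. Counts of 11445 genes were simulated for the 6-library comparison, with 200 changed. From these edgeR recovered 199 at a dispersion of 0.02 and 173 at 0.12 (11 and 10 false calls). The genes raised there had a median fitted log2 fold change of 2.03 and 2.05, far above the members' values. The split of the libraries numbered 1 was not simulated. The check thus does not tell how often changes of the members' size would be found. The dispersion in the data was 0.124 over 6 libraries and 0.0168 over libraries 2 and 3. Exon lengths and overlaps came from GENCODE on mm10 and promoters from RefSeq.

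The members and gene lists were chosen with earlier results of these data known. Named genes were all 10 members, the 3 genes of each list with the largest absolute log2 fold change at a mean log2 CPM of at least 1, the 5 genes most like Tap1 and Calr, and the transduced genes; 1 gene that the rule names is not reported here. Isg15, H2-D1, Rsad2, Irf1, Hsp90b1, Hspa5 and the markers Eng, Cd44, Thy1 and Ptprc were named besides, with their values seen.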

Additional observations from a re-analysis of the deposited data

How the results depend on the processing

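Of 150 values of single members under the alternatives, 141 kept their direction and 9 reversed, 3 of them when 1 library was left out. Tapbp reversed to 0.37 and Tapbpl to 0.15 with libraries 2 and 3 only (0.37 and 0.16 by DESeq2, an alternative chosen after seeing the data), Canx to 0.0193 and Pdia3 to 0.00021 with the cell division covariate, Tapbp to 0.22 without Ctl MSC 1, Tapbpl to 0.0233 without MSC-TPr 1 and Pdia3 to 0.0136 without Ctl MSC 3. When each library was left out, Tapbp ranged from -0.57 to 0.22, Tapbpl from -0.25 to 0.02, Pdia3 from -0.22 to 0.01, B2m from -0.57 (without MSC-TPr 1) to -0.07 (without MSC-TPr 3), Nlrc5 from -1.02 (without MSC-TPr 1) to -0.32 (without Ctl MSC 2), Tap1 from -0.61 (without MSC-TPr 3) to -0.04 (without Ctl MSC 1), Erap1 from -0.34 (without Ctl MSC 2) to -0.08 (without Ctl MSC 1), Calr from -0.45 (without Ctl MSC 1) to -0.09 (without Ctl MSC 3), Canx from -0.24 to -0.02 and Tap2 from 0.31 to 0.66. The count of members called was 0 under all alternatives except libraries 2 and 3 only, where it was 2 by edgeR and 2 by DESeq2, and was 0 to 0 when each library was left out. The count of all genes called was 51, and became 683 by DESeq2, 31 with at least 10 counts in every library, 1436 with the covariate, 4854 with libraries 2 and 3 only (4565 by DESeq2) and 0 to 108 when each library was left out, with 108 without Ctl MSC 1, 44 without MSC-TPr 1, 1 without MSC-TPr 2 and 0 without Ctl MSC 2, Ctl MSC 3 or MSC-TPr 3. With libraries 2 and 3 only the median of the interferon-inducible members moved to -0.0341 (-0.0339 by DESeq2), that of the chaperones to -0.36 (-0.35 by DESeq2) and their difference to 0.32 (0.32 by DESeq2). When each library was left out they ranged from -0.32 to -0.0386, from -0.24 to -0.03 and from -0.28 to 0.20. The cause was not tested.

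Whether the replicate numbers pair the samples could not be decided. Deviations from the group mean of same-numbered libraries correlated at -0.765, -0.594 and -0.604. Between library 2 of either group and library 3 of the other the value was -0.577. Such deviations cancel within a group, and the libraries numbered 1 lie on opposite sides of the largest split. The correlations therefore cannot tell pairing from its absence. With the replicate block edgeR called 0 genes, and 251 higher and 525 lower genes had an unadjusted p under 0.05, none of them a member. Tap1 and Nlrc5, with 132 reads in their lowest library, have the least depth among the members.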
